A study of Rattus norvegicus with 2 samples.

Results

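Potassium channel genes were described in the lumbar spinal cord (SC) of rats with chronic constriction injury (CCI) and of Sham rats. The members were all genes whose symbol starts with Kcn, and there were 87 of them among the 18166 genes that the platform annotation names singly on the array. For each gene the probe set with the highest mean of both arrays was kept, a choice that arose only for Kcnk6.

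Both groups were adult male Sprague-Dawley rats, and the L4-L6 segments were taken on postoperative day 10. In the CCI group 4 loose ligatures were tied around the left sciatic nerve, whereas Sham surgery exposed this nerve without tying it. For each group, the total RNA of 3 rats was combined into a single sample and hybridised to 1 Affymetrix Rat Gene 2.0 ST array, which gives 1 CCI array and 1 Sham array in all. Values are log2 expression after robust multi-array average (RMA), and every difference is the CCI value minus the Sham value. With 1 array per group there is no replicate error and no test, and the spread among rats is hidden by the mixing. In tissue RNA, fewer cells of a type and less RNA per cell cannot be told apart.

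Potassium channels let K+ leave the cell and so set the resting potential, shape the action potential and limit repetitive firing. Many pore subunits are voltage-gated (Kv) and assemble as tetramers, in company with silent modifier subunits and with auxiliary subunits that do not form a pore. Others are opened by intracellular calcium or sodium, conduct inward better than outward (Kir), or form the leak conductance from subunits with a pair of pore domains. In the dorsal horn and in primary afferents these channels are known as brakes on excitability, and in astrocytes the inward rectifiers take up K+ released by neurons.

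The potassium channel genes were more often lower than higher in the CCI array, by small amounts. Of the 87 members, 60 (69.0%) had a lower value in CCI and 27 a higher one, against 52.4% lower among all 18166 genes, and their median difference was -0.17, or 1.13-fold lower, against -0.01 for all genes. The difference lay with the members at or above the median level of all genes, 5.83. Of these 44 members, 40 (90.9%) were lower in CCI, against 58.3% of all genes at or above that level, and the median difference was -0.25, against -0.04. Among the 43 members below it, 20 were lower and 23 higher, with a median difference of 0.02, as it was for all genes below that level.

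**Figure D1:**
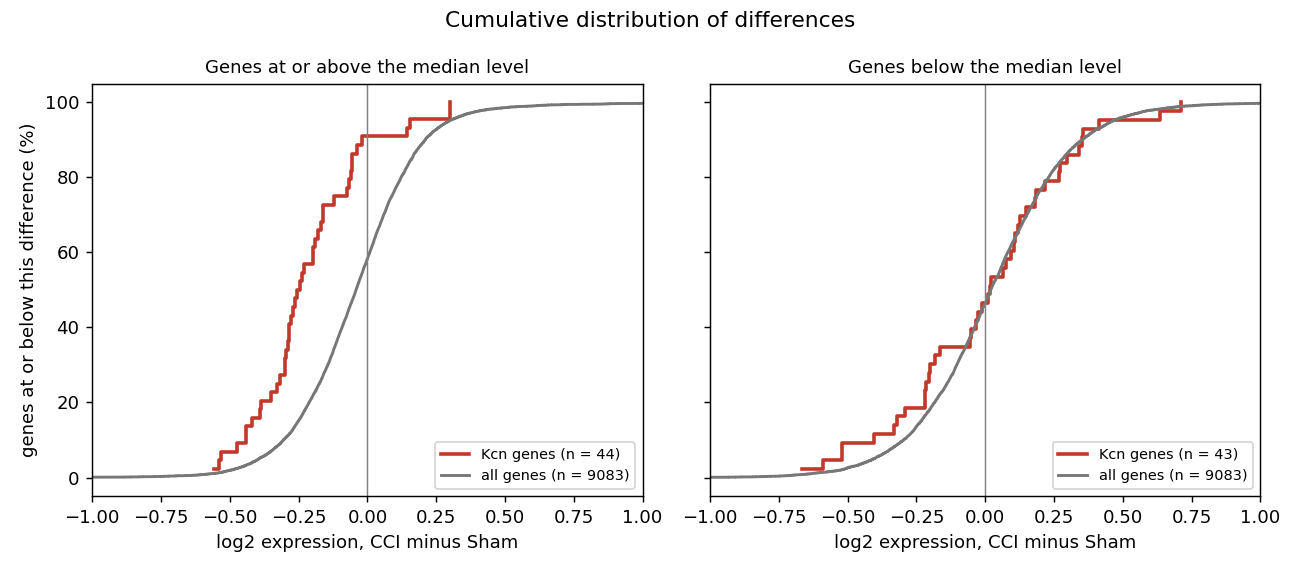
Cumulative share of genes (y axis, %) at or below each log2 difference of CCI minus Sham (x axis), for Kcn genes (red) and all genes (grey), with genes at or above the median level of all genes on the left and those below it on the right. On the left the red line lies to the left of the grey one and 40 of 44 Kcn genes are below 0, and on the right, where 20 of 43 are below 0, the lines run close together.

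All 32 members at or above the median level that form a pore were lower in CCI, against 58.3% of all genes at that level. They comprised 15 voltage-gated subunits, 8 inward rectifiers, 6 of the two-pore-domain class and 3 subunits activated by calcium or sodium. This subset was not planned before the values were seen, and it leaves out the modifier and auxiliary classes. After an intensity trend was subtracted, 31 of the 32 were lower, Kcnj12 being the exception. The 4 members at this level with a higher value were the modifiers Kcng1 and Kcns3 and the auxiliary subunits Kcnip1 and Kcnip3, which form no channel on their own.

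Most single differences lay within the spread of all genes. At or above the median level, the central 95% of all genes had differences between -0.47 and 0.39, and below it between -0.50 and 0.57. The study combined a fold change above 1.5 with a P value for its arrays, and only the fold can be applied to 1 mixed sample per group. By more than 1.5-fold, 2 members (2.30%) were higher, against 1.64% of all genes, and 2 were lower, against 1.14%, so that these counts lay close to the background. None was past 2-fold, against 0.242% of all genes higher and 0.0716% lower. A log2 difference beyond 0.32 was found for 17 members lower in CCI (19.5%), against 8.65% of all genes, and for 6 higher (6.90%), against 8.01%. At or above the median level 11 of the 44 members (25%) were lower beyond 0.32, against 8.7% of all genes, and 0 were higher beyond it, against 4.16%. No member at that level passed 1.5-fold, against 1% of all genes higher and 0.87% lower. No p-value belongs to these shares, because genes of a family are not independent replicates.

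**Figure D2:**
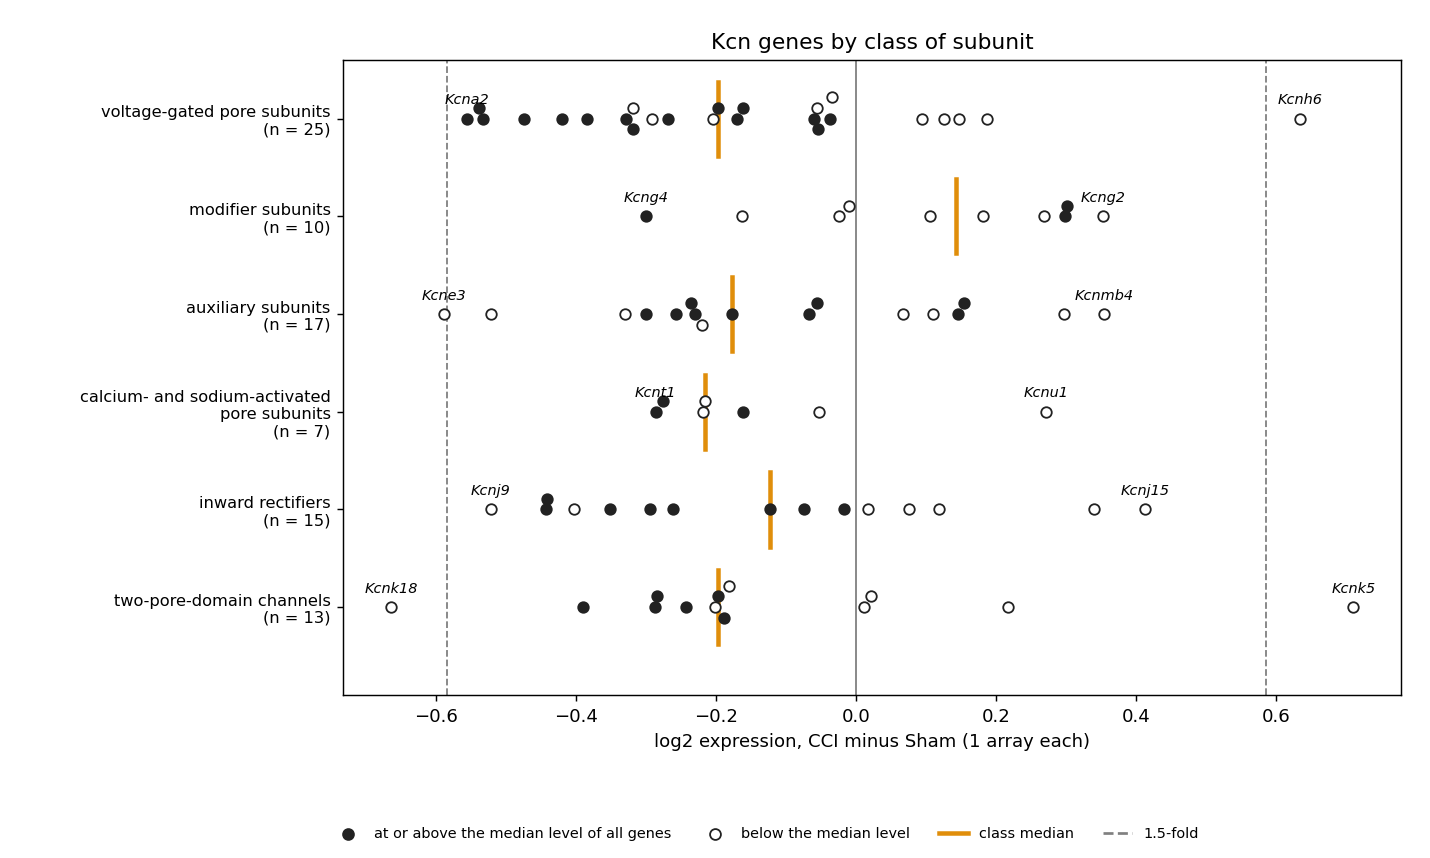
Log2 difference of CCI minus Sham (x axis, 1 array each) for the 87 Kcn genes, by class of subunit (rows). Each point is 1 gene, filled where its mean level is at or above the median of all genes, the orange bar is the class median and dashed lines mark 1.5-fold. The median is below 0 in each class except the modifier subunits, and the 4 genes past a dashed line, Kcnk5, Kcnh6, Kcnk18 and Kcne3, are open points.

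The 4 members past 1.5-fold all lay below the median level. Kcnk5, a two-pore-domain channel gated by pH outside the cell, was at 4.62 in CCI, against 3.91 in Sham. The Sham value was below a rough background level, taken as the 95th percentile of olfactory and vomeronasal receptor genes on each array (4.36 in CCI and 4.44 in Sham), and the fold is therefore only given as at least 1.14. Kcnh6, which encodes a channel of the ether-a-go-go related family, was at 5.60 in CCI, against 4.96 in Sham, 1.55-fold higher and above background on both arrays. Kcnk18, known as TRESK and as a leak channel of sensory neurons, was lower, at 4.90 in CCI, against 5.56 in Sham (1.58-fold). Of 9 measured markers of sensory ganglia, 3 were lower and 6 higher, with a median of 0.08, and 3 of the 9 were above background on only 1 array. The part of ganglion content in the Kcnk18 value was not tested. Kcne3, a small auxiliary subunit with a single membrane span, was just past the threshold at 4.69 in CCI, against 5.28 in Sham (1.505-fold lower). With the median difference of all genes subtracted its difference was -0.58, short of 1.5-fold. The nearest member short of the threshold was Kcna2, at 1.47-fold lower.

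Promoter stretches are shown for the 4 members past 1.5-fold and for Kcna2, Kcnh1 and Kcnc1, which had the lowest differences at or above the median level among members with an entry in the RefSeq promoter table (GRCr8). Each is the 150 bases just before the annotated start, 5′ to 3′, on the strand of the gene, and capitals mark matches on either strand to GGGCGG (the GC box), CCAAT or TATAAA.
Kcnk5 (chr15:4171475-4171624, + strand): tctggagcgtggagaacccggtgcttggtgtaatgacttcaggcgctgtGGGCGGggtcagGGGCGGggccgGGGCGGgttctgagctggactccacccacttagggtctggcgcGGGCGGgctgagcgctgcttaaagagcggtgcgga
Kcnh6 (chr10:91449501-91449650, + strand): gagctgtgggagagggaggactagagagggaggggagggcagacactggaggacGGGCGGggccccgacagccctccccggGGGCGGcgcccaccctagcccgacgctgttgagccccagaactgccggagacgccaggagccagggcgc
Kcnk18 (chr1:268360588-268360737, + strand): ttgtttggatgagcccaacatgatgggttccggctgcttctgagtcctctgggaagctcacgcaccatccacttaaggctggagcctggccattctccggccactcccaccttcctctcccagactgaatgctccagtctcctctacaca
Kcne3 (chr1:163935885-163936034, + strand): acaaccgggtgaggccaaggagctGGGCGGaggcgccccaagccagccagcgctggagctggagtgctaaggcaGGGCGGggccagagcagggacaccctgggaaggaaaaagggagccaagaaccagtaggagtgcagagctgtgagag
Kcna2 (chr2:197393380-197393529, + strand): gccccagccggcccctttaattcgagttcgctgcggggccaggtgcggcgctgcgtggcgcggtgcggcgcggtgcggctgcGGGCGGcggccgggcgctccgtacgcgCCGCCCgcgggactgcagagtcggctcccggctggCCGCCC
Kcnh1 (chr13:106253066-106253215, + strand): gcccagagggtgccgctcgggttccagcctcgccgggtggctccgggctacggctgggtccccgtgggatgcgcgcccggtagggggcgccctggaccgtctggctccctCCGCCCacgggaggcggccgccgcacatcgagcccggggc
Kcnc1 (chr1:106039097-106039246, + strand): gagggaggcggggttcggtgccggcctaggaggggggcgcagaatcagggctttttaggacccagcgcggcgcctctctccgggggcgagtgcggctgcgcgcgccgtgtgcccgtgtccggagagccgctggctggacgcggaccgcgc
The GC box was matched 4 times for Kcnk5, 3 times for Kcna2, 2 times each for Kcnh6 and Kcne3 and 1 time for Kcnh1. Kcnk18 and Kcnc1 held none of the 3 motifs, and none of the 7 held CCAAT or TATAAA. The table held 66 stretches for 60 of the 87 members, of which 40.9% held a GC box, against 26.0% of all 33469 stretches in the table. CCAAT was held by 16.7%, against 23.5%, and TATAAA by 3.03%, against 8.0%. The median share of G and C was 63.3% in the members' stretches and 52.7% in all. Among the 7 shown, GC boxes were matched for genes with higher and for genes with lower values in CCI. The members' stretches were not compared by direction.

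The Kv1 genes (Kcna), whose products sit along axons next to the nodes of Ranvier and hold back repetitive firing, were lower in 7 of 8 cases. Among all genes 52.4% were lower. Only 3 of the 8 lay at or above the median level, and 46.4% of all genes below it were lower. Kcna2 was at 9.31 in CCI, against 9.87 in Sham (1.47-fold lower), the lowest difference of the 44 members at or above the median level. Kcna1, which pairs with Kcna2 in axons, was at 10.62 in CCI, against 10.95 in Sham (1.26-fold), and Kcna6 differed by less, at 8.25 in CCI, against 8.31 in Sham. Kcna4, which inactivates fast, was at 5.35 in CCI, against 5.67 in Sham. Kcna3, a channel of lymphocytes and microglia as well as neurons, was at 5.61 in CCI, against 5.90 in Sham (1.22-fold lower), in a tissue where all microglia markers were higher. Kcna5 and Kcna7 were lower by 1.04-fold and 1.15-fold, and Kcna10, at 4.14 in CCI, against 3.99 in Sham, was below background on both arrays.

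The Kv beta subunits (Kcnab), cytoplasmic partners of Kv1 that speed inactivation and help deliver the channel to the membrane, were lower in 3 of 3 cases. All 3 lay at or above the median level, where 58.3% of all genes were lower. Kcnab2 was at 9.57 in CCI, against 9.87 in Sham (1.23-fold), Kcnab1 was 1.18-fold lower, and Kcnab3 was at 7.53 in CCI, against 7.76 in Sham (1.17-fold). In a list of 21 Kv partners of other names, 20 were measured, 19 of them at or above the median level. Of the 20, 14 were lower, against 58.3% of all genes at that level, with a median difference of -0.14. None passed 1.5-fold in either direction, against 1% of all genes at that level higher and 0.87% lower. By more than 0.32 on the log2 scale 5 were lower, against 8.7%. The largest differences of the list were those of Lgi3 and Adam23, a secreted ligand and a membrane partner found with axonal Kv1 channels, and of Dpp6, a partner of Kv4. Lgi3 was at 9.75 in CCI, against 10.30 in Sham, Adam23 at 9.67 in CCI, against 10.12 in Sham, and Dpp6 at 10.20 in CCI, against 10.57 in Sham. Subunits and partners were also grouped into 5 kinds of channel after the values had been seen, so that the counts restate those values. Of 16 genes of the axonal Kv1 complex 15 were lower in CCI, the exception being the scaffold Dlg1, at a difference of 0.08. All of them but Kcna4 lay at or above the median level, where 58.3% of all genes were lower, against 52.4% at any level.

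**Figure D3:**
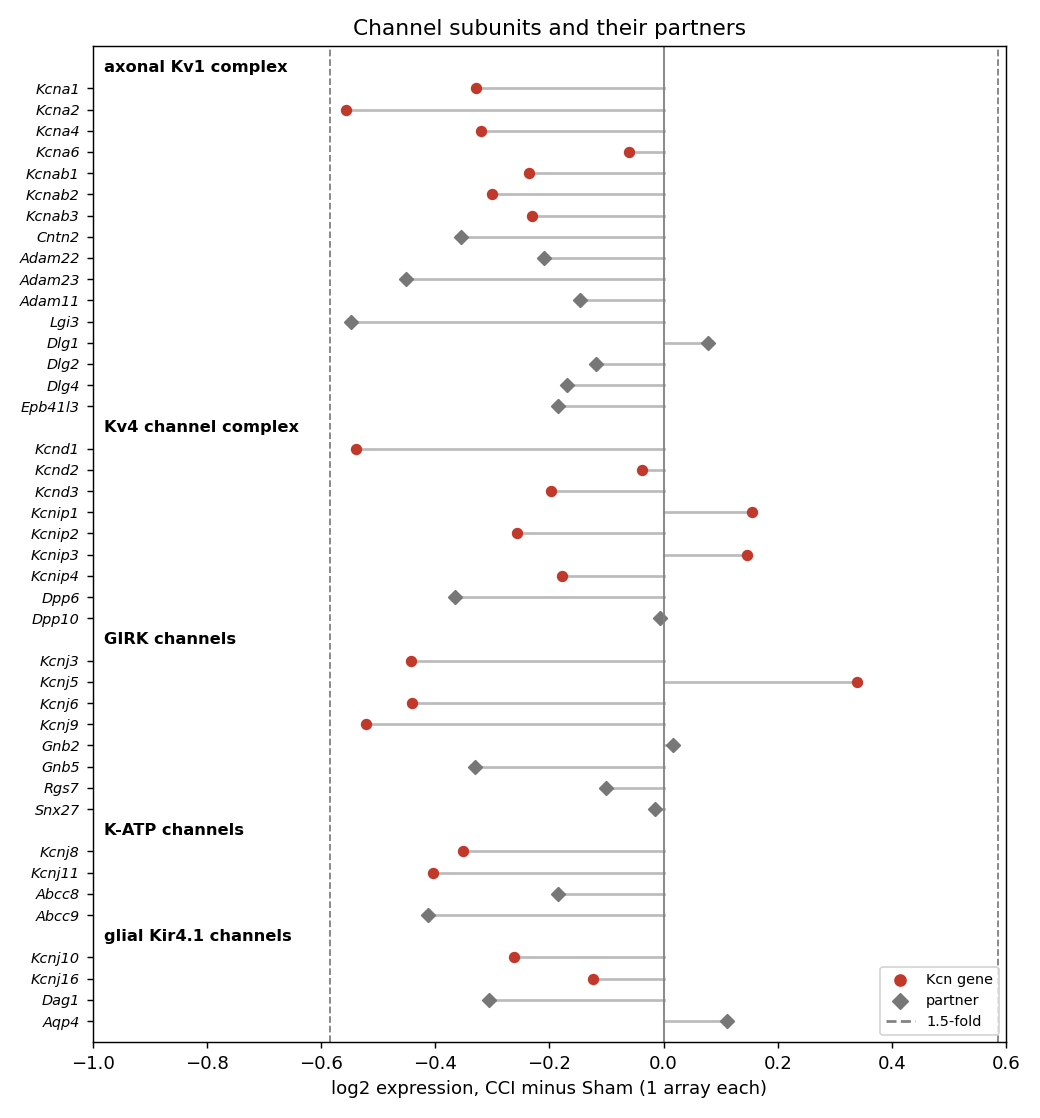
Log2 difference of CCI minus Sham (x axis, 1 array each) for subunits (red circles) and partners (grey diamonds) of 5 kinds of channel, grouped by rows with the values known, with dashed lines at 1.5-fold. Left of 0 lie 15 of 16 genes of the axonal Kv1 complex, 7 of 9 of the Kv4 complex, 6 of 8 of the GIRK channels, 4 of 4 of the K-ATP channels and 3 of 4 of the glial Kir4.1 channels, against 52.4% of all genes and 58.3% of those at or above the median level.

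Among the other voltage-gated pore subunits, each measured member of Kcnb, Kcnc and Kcnd was lower. Kcnb2, a delayed rectifier, was at 6.11 in CCI, against 6.53 in Sham (1.34-fold). Kcnc1, which lets neurons fire at high rates, was at 7.82 in CCI, against 8.30 in Sham (1.39-fold), while its relative Kcnc2 was at 7.71 in CCI, against 7.87 in Sham (1.12-fold). These genes carry the fast and delayed repolarising currents of spinal neurons. Of the Kv4 genes, which carry the A-type current and are known to damp dorsal horn neurons, Kcnd1 was at 5.92 in CCI, against 6.46 in Sham (1.45-fold). Kcnd3 was at 6.81 in CCI, against 7.01 in Sham (1.15-fold), and Kcnd2 was nearly level, at 9.44 in CCI, against 9.48 in Sham.

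The Kv channel interacting proteins (Kcnip), calcium sensors that bind Kv4, did not share a direction. Kcnip1 was at 9.05 in CCI, against 8.89 in Sham (1.11-fold higher). Kcnip3, which also acts in the nucleus as the repressor DREAM, known for silencing the prodynorphin gene, was at 9.08 in CCI, against 8.94 in Sham (1.11-fold higher). By contrast, Kcnip2 was at 6.37 in CCI, against 6.63 in Sham (1.20-fold lower), and Kcnip4 was 1.13-fold lower. The Kv4 genes themselves were lower or level, so that Kcnip1 and Kcnip3 differed in direction from the pores they bind.

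The ether-a-go-go genes (Kcnh) had the widest spread of the voltage-gated pore subfamilies. Kcnh1 was at 5.62 in CCI, against 6.16 in Sham (1.45-fold lower), and Kcnh7 at 7.13 in CCI, against 7.52 in Sham (1.31-fold lower). Kcnh2 and Kcnh7 belong to the same related group as Kcnh6, and Kcnh2 was 1.20-fold lower, opposite in direction to Kcnh6. Kcnh5 was 1.13-fold lower, Kcnh8 and Kcnh3 were 1.14-fold and 1.07-fold higher, and Kcnh4 was 1.02-fold lower. Of the Kcnq genes, which carry the M-current that holds neurons near rest, Kcnq5 was at 6.69 in CCI, against 7.01 in Sham, and Kcnq3 was nearly level, at 7.69 in CCI, against 7.75 in Sham. Kcnq1, the heart and epithelial member, was at 4.02 in CCI, against 3.90 in Sham and below background on both arrays.

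**Figure D4:**
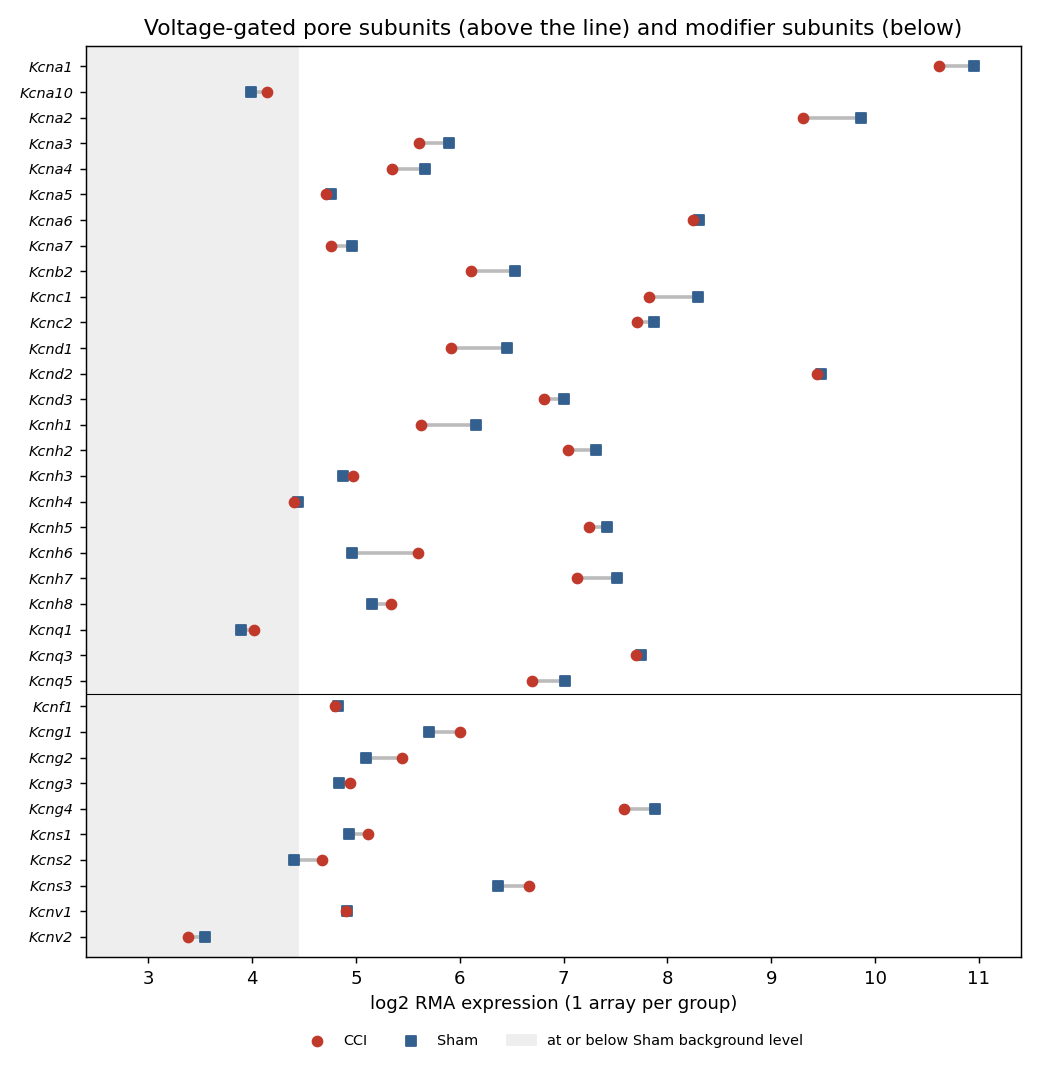
Log2 RMA expression (x axis) of voltage-gated pore subunits (rows above the line) and modifier subunits (rows below it) in CCI (red circles) and Sham (blue squares), 1 array per group, with grey shading up to the Sham background level of 4.44. The red circle lies to the left of the blue square in 20 of 25 pore subunits and in 4 of 10 modifiers, against 52.4% of all genes.

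The modifier subunits (Kcnf, Kcng, Kcns and Kcnv), which form no channel alone and alter Kv2 channels when they join them, were the only class with a median above 0, at 0.14, and 6 of its 10 members were higher in CCI. The 40% that were lower lay near the 46.4% of all genes below the median level. Only 3 of the 10 modifiers were at or above that level, where 58.3% of all genes were lower. Kcns3 was at 6.67 in CCI, against 6.37 in Sham (1.23-fold higher), and Kcng1 at 6.0 in CCI, against 5.70 in Sham (1.23-fold higher). Kcng2 was at 5.45 in CCI, against 5.10 in Sham (1.28-fold higher), and Kcng3 was 1.08-fold higher. Higher values were thus found for 3 of 4 Kcng and 3 of 3 Kcns genes. Kcns1, a sensory neuron subunit linked to pain in humans, was at 5.11 in CCI, against 4.93 in Sham (1.13-fold higher). For Kcns2, which was below background in Sham, the fold was at least 1.18. On the other side, Kcng4 was at 7.58 in CCI, against 7.88 in Sham (1.23-fold lower), and Kcnf1 was at 4.80 in CCI, against 4.82 in Sham. Kcnv1 was level, at 4.91 in CCI, against 4.92 in Sham, and turned just above 0 once the median difference of all genes was subtracted. Kcnv2, a subunit of photoreceptors, was at 3.38 in CCI, against 3.55 in Sham and below background on both arrays. Whether this class differs from the others was not tested. Kcnb2, which encodes a Kv2 pore to which these subunits bind, was lower, as given above.

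The other auxiliary subunits divided by family. Of the 5 Kcne genes, single-span proteins that tune Kv channels, 4 were lower, against 52.4% of all genes. Next to Kcne3, Kcne4 was at 4.67 in CCI, against 5.19 in Sham (1.44-fold lower). Kcne2 was 1.26-fold lower. Kcne5 was at 7.91 in CCI, against 7.98 in Sham, and Kcne1, the partner of Kcnq1 in the heart, at 4.82 in CCI, against 4.75 in Sham. The beta subunits of the large-conductance calcium-activated channel (BK, Kcnmb) were higher in 3 of 4 cases and lower in 1. Among all genes 52.4% were lower. Kcnmb4, the neuronal BK beta subunit, was at 5.62 in CCI, against 5.26 in Sham (1.28-fold higher), and Kcnmb2 was 1.08-fold higher. Kcnmb1, the smooth muscle subunit, was at 5.90 in CCI, against 5.96 in Sham, and Kcnmb3 was below background on both arrays. Kcnrg, a soluble protein known in humans to hold back the assembly of Kv channels, was at 5.59 in CCI, against 5.81 in Sham (1.16-fold lower).

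The pore of the BK channel itself went the other way from Kcnmb4. Kcnma1, which ends the action potential after calcium entry, was at 8.11 in CCI, against 8.39 in Sham (1.21-fold lower). The small-conductance genes, which give an afterhyperpolarisation, differed less, with Kcnn3 1.12-fold lower and Kcnn1 at 5.47 in CCI, against 5.53 in Sham. Kcnn4, the intermediate-conductance channel of blood cells and microglia, was at 4.70 in CCI, against 4.92 in Sham (1.16-fold lower). The sodium-activated channels Kcnt1 and Kcnt2 were both lower. Kcnt1 was at 6.85 in CCI, against 7.14 in Sham (1.22-fold), and Kcnt2 at 5.57 in CCI, against 5.79 in Sham (1.16-fold). In this class 6 of 7 members were thus lower, against 52.4% of all genes. The other, the sperm channel gene Kcnu1, was at 3.29 in CCI, against 3.01 in Sham and below background on both arrays.

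Of the inward rectifiers (Kcnj) 10 of 15 (66.7%) were lower, against 52.4% of all genes. The G protein-gated channels (GIRK), through which opioid and GABA-B receptors quiet dorsal horn neurons, had 3 of 4 genes lower. Kcnj3 was at 8.28 in CCI, against 8.73 in Sham (1.36-fold), Kcnj6 at 6.77 in CCI, against 7.21 in Sham (1.36-fold), and Kcnj9 at 5.08 in CCI, against 5.60 in Sham (1.44-fold). Kcnj5, the subunit known from the heart atrium, was higher, at 5.31 in CCI, against 4.98 in Sham (1.27-fold).

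The pores of ATP-sensitive channels (K-ATP), which open when cellular ATP falls, were both lower. Kcnj11 was at 5.51 in CCI, against 5.91 in Sham (1.32-fold), and Kcnj8, a marker of pericytes and smooth muscle, at 6.44 in CCI, against 6.79 in Sham (1.28-fold). Their sulfonylurea receptor partners were lower too, Abcc9 at 6.36 in CCI, against 6.77 in Sham, and Abcc8 at 5.71 in CCI, against 5.90 in Sham. Kcnj8 and Abcc9 mark mural cells, and 9 of 12 measured endothelial and mural markers were lower, with a median of -0.28 and a summed linear level of 1919 in CCI, against 2010 in Sham. Abcc9 is on that list as well, and the part of those cells in the Kcnj8 value was not tested.

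The glial inward rectifiers were lower by little. Kcnj10, the main K+ uptake channel of astrocytes, was at 9.58 in CCI, against 9.85 in Sham (1.20-fold lower), and its partner Kcnj16 at 9.45 in CCI, against 9.57 in Sham (1.09-fold lower). Of 10 measured astrocyte markers 6 were higher and 4 lower, with a median of 0.08, and the sum of their linear levels was 16402 in CCI, against 15411 in Sham. The marker Sox9 lay below background on both arrays. Kcnj2, a strong rectifier also found in microglia, was at 5.91 in CCI, against 6.20 in Sham (1.23-fold lower). Kcnj14 was nearly level, at a difference of -0.07, and so was Kcnj12, at 6.42 in CCI, against 6.44 in Sham, whose sign turned with the intensity trend subtracted. Kcnj15 was at 4.85 in CCI, against 4.44 in Sham (1.33-fold higher), the Sham value lying at the background level, and Kcnj1, Kcnj4 and Kcnj13, the first known from the kidney, were below background on both arrays.

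**Figure D5:**
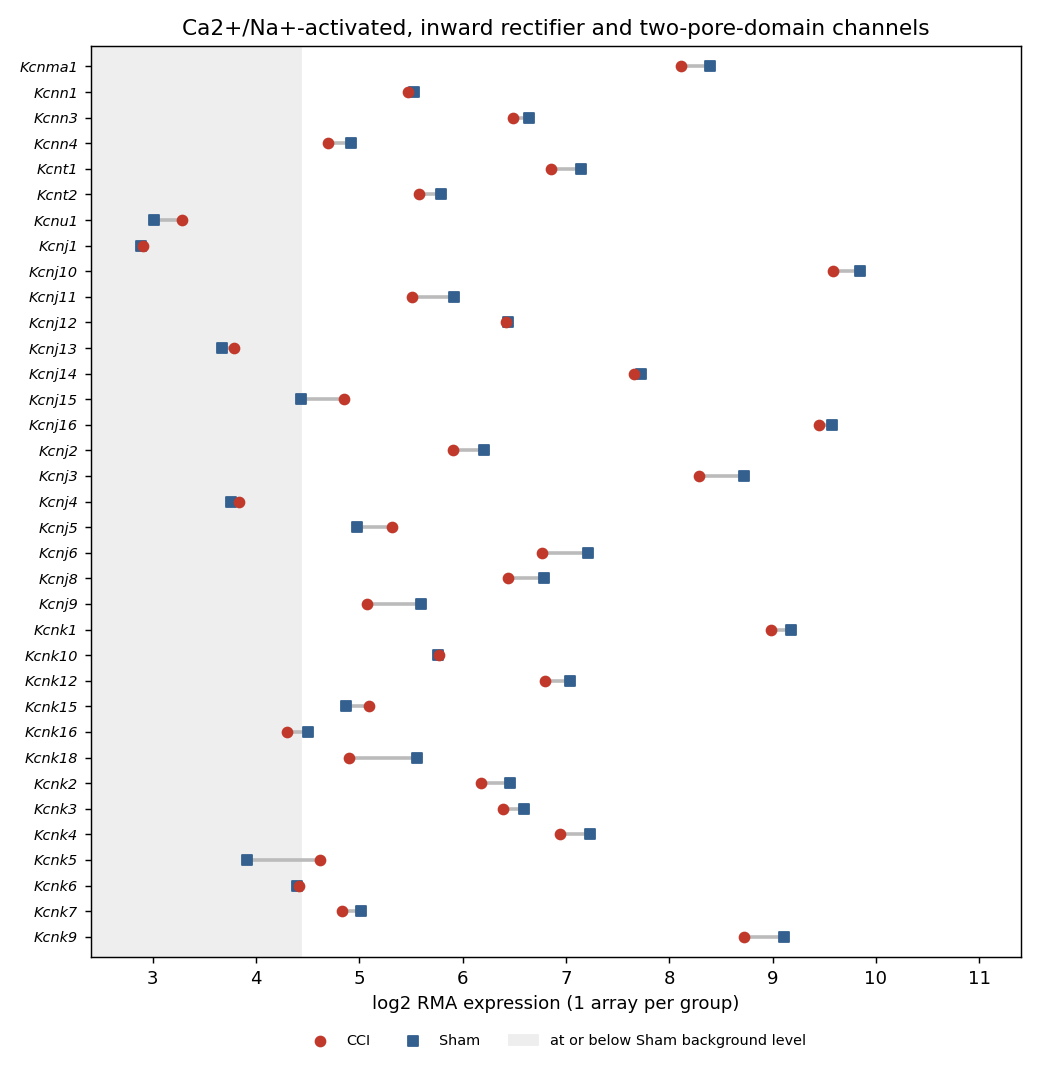
Log2 RMA expression (x axis) of calcium- and sodium-activated channels, inward rectifiers and two-pore-domain channels (rows) in CCI (red circles) and Sham (blue squares), 1 array per group, with grey shading up to the Sham background level of 4.44. The red circle lies to the left of the blue square in 6 of 7, 10 of 15 and 9 of 13 genes of these classes. Among all genes 52.4% are lower in CCI. The widest gaps are at Kcnk5, where CCI is higher, and at Kcnk18 and Kcnj9, where it is lower.

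The two-pore-domain genes (Kcnk), which carry the leak current, were lower in 9 of 13 cases (69.2%), against 52.4% of all genes. Kcnk9, an acid-sensitive leak channel of neurons, was at 8.72 in CCI, against 9.11 in Sham (1.31-fold), and its relative Kcnk3 was 1.15-fold lower. The mechanically gated channel Kcnk2 was at 6.18 in CCI, against 6.46 in Sham (1.22-fold), and its relative Kcnk4 was 1.22-fold lower, whereas Kcnk10, of the same group, was level at a difference of 0.01. Kcnk1, also found in astrocytes, was 1.14-fold lower, Kcnk12 1.18-fold and Kcnk7 1.13-fold. Kcnk15 was 1.16-fold higher. Kcnk16, known from the pancreas, was below background in CCI (at least 1.10-fold lower). Kcnk6 had a pair of probe sets, which disagreed in direction, at 0.02 for the one kept and -0.16 for the other, all values lying near the background level.

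Some members lie next to each other in the order of protein-coding genes of the GRCr8 assembly. Of 10 such pairs, 6 had differences of the same sign and 4 of opposite sign. Kcna3 and Kcna2 were both lower, as were Kcna5, Kcna1 and Kcna6, which follow each other. Kcnj9 and Kcnj10 were both lower, although one is a neuronal GIRK gene and the other glial. Kcnj6 and Kcnj15, by contrast, were neighbours with differences of opposite sign, at -0.44 for Kcnj6 and 0.41 for Kcnj15. The other pairs of opposite sign were Kcna2 with Kcna10, Kcnk16 with Kcnk5, and Kcnip1 with Kcnmb1.

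Other genes that move K+ or set the resting potential were described from lists. Of 21 measured pumps, cotransporters and their regulators, 12 (57.1%) were lower, close to the 52.4% of all genes, with a median of -0.06. Past 1.5-fold 1 was higher, against 1.64% of all genes. Wnk2, a kinase that controls cotransporters, was at 6.97 in CCI, against 7.38 in Sham. The K+/Cl- cotransporter Slc12a4 was at 6.16 in CCI, against 6.55 in Sham, and Slc12a5 (KCC2), which keeps chloride low in neurons and so makes GABA inhibitory, at 8.41 in CCI, against 8.71 in Sham. Another K+/Cl- cotransporter at or above the median level, Slc12a7, named after its value was seen, was higher, at 6.15 in CCI, against 6.01 in Sham, so that the cotransporters that export K+ did not share a direction. The member past 1.5-fold, named after its value was seen, was the sodium pump regulator Fxyd2, at 5.79 in CCI, against 5.02 in Sham.

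Of 15 measured partners of BK, K-ATP and inward rectifier channels, 10 (66.7%) were lower, against 52.4% of all genes, with a median of -0.10. The largest difference of the list was that of a higher member below the median level, Lrrc26, at 5.42 in CCI, against 4.96 in Sham. Besides Abcc9, Gnb5, a G protein beta subunit found with GIRK channels, was at 7.61 in CCI, against 7.94 in Sham. Dag1, the dystroglycan that anchors Kir channels at astrocyte endfeet, was at 8.63 in CCI, against 8.93 in Sham. Of 11 measured pacemaker and cyclic nucleotide-gated channel genes and relatives, 6 (54.5%) were lower, close to the 52.4% of all genes, with a median of -0.14. Of the 11, 5 lay below background on both arrays. Unc79, a subunit of the sodium leak channel, was at 7.04 in CCI, against 7.52 in Sham, its pore Nalcn at 7.81 in CCI, against 8.04 in Sham, and the pacemaker channel Hcn2 at 9.49 in CCI, against 9.63 in Sham.

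Lower values at or above the median level were also found for other channel families and for neuronal markers. Of the sodium channel subunits (Scn) at that level, 6 of 6 were lower with a median of -0.38. Of the calcium channel subunits (Cacn) at that level 17 of 17 were lower, with a median of -0.24, against -0.25 for the 44 potassium channel genes. Among all genes at that level 58.3% were lower. At any level 9 of 11 Scn genes and 19 of 24 Cacn genes were lower, against 52.4% of all genes. Below the median level, 1 Scn gene was higher past 1.5-fold, at a difference of 1.31. All 15 neuronal markers were lower, with a median of -0.15 and a summed linear level of 26880 in CCI, against 30374 in Sham, and none was below background. The 14 measured microglia markers were all higher and 10 passed 1.5-fold, their median being 0.83 and their summed linear level 4727 in CCI, against 2393 in Sham. The part of neuron or microglia content in the values of the potassium channel genes was not tested. Of 9 motor neuron markers 6 were lower (median -0.20, 1 past 1.5-fold), and of 7 oligodendrocyte precursor markers 6 (median -0.19). Of 10 oligodendrocyte markers 7 were higher (median 0.08), all above background on both arrays. Markers of neighbouring tissue had 4 of 7 lower for Schwann cells (median -0.08, 1 higher past 1.5-fold) and 6 of 9 for meninges (median -0.09, 1 higher past 1.5-fold). The counts were 3 of 4 lower for ependyma (median -0.07), 1 of 4 for muscle (median 0.09) and 4 of 5 for blood (median -0.25), with 2 of the ependymal and 2 of the blood markers below background on both arrays. The lumbar Hox genes Hoxc10 and Hoxd10 were at 6.57 and 7.65 in CCI, against 6.56 and 7.49 in Sham, and with Hoxa10 and Hoxc9 were above background on both arrays, as were the neuronal and oligodendrocyte markers.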

How the data were processed

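Each array carried a mixture of RNA from 3 rats. The authors normalised the arrays by RMA in R with Bioconductor and deposited log2 values, to which no pseudocount was added here. RMA equalises the probe distributions (the medians of the deposited values were 5.06 in CCI and 5.0 in Sham) and flattens differences near background, which understates folds of dim genes. Of 28879 probe sets, 18511 had 1 gene symbol in the platform annotation, 575 several and 9793 none, and only the first kind was used. All 87 Entrez IDs of the members were found in the RefSeq table. Some Kcn genes are not reported here. The build behind the array annotation is not given in the sources used here.

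The difference of CCI minus Sham was taken per gene, since 2 arrays allow no test and their number limits the precision. Counts past a fold were set beside the share of all genes past it, and the fold is given only where both values exceeded the background level. Where only the brighter one did, it is a bound over the background of the dimmer array. Alternatives were a lower (0.32 on the log2 scale) and a higher (2-fold) threshold, a floor at the median level, subtraction of a lowess trend (span 0.3) or of the median difference, the mean over probe sets, updated symbols, probe sets with several symbols, and means in place of medians. Python 3.11.15, pandas 2.3.3 and statsmodels 0.14.6 were used. The choice of probe set, the fold threshold and the trend subtraction were tested on simulated data, which had less scatter than the real arrays.

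The members, the 18 gene lists and the alternatives were chosen with earlier results of these data known. Both values were given for members past 1.5-fold, for those with the 10 lowest and the 10 highest differences at or above the median level (only 4 being above 0), for the highest and lowest of each subfamily and for members with a textbook role in microglia, astrocytes, mural cells, spinal neurons or nociceptors, while others are given by their fold or count. The values of Kcna4, Kcne4, Kcnj5 and Kcnj11 were added after they had been seen, to complete their subfamily or channel type. From each partner list up to 3 members at or above the median level were named by size of difference. Abcc8, Dlg1, Fxyd2, Lrrc26, Slc12a7, Sox9 and the Hox genes were named after their values were seen.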

Additional observations from a re-analysis of the deposited data

How the results depend on the processing

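With 1 array per group no replicate could be left out, and no paired analysis was possible because each group holds a single mixture. The counts past 1.5-fold depended on the threshold. Past 2-fold 0 members were higher and 0 lower, and 6 were higher and 17 lower past 0.32 on the log2 scale. With only genes at or above the median level, 0 members were higher and 0 lower past 1.5-fold, because all 4 such members lay below that level. With the median difference of all genes subtracted, 1 member was lower past 1.5-fold, Kcne3 dropping out. With the floor on level the medians were -0.32 over 15 voltage-gated pore subunits, 0.30 over 3 modifier subunits and -0.28 over 8 inward rectifiers, further from 0 than with all members. The number of members lower in CCI was 60 with the intensity trend subtracted and 59 with the median difference subtracted. The counts at or above the median level, under alternatives chosen after seeing the data, were 39 of 44 members and 31 of 32 pore subunits with the trend subtracted, and were unchanged with the median subtracted. Of 55 members recomputed singly, 1 changed sign under each of these subtractions, Kcnj12 and Kcnv1, both near 0, and none with the mean over probe sets. Medians of the classes and lists kept their sign under every alternative that was run for them. Signal close to background limits 12 of the 87 members, 8 of which were below it on both arrays.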
